A study of Mus musculus with 4 samples.

Results

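The 9 genes described here encode the pore-forming alpha1 subunits of voltage-gated calcium channels, Cacna1a to Cacna1i. They were taken by symbol from a deposited table of 14572 genes, and 9 of the 9 symbols were found. RNA was from whole retinas of C57BL/6 mice. The eyes had been held at raised pressure for 1 h (acute ocular hypertension, AOH, an injury that models glaucoma) and the retinas were removed 5 days later. Libraries P1041 and P1033 came from wild-type retinas (WT). Libraries TP-1036 and TP-1040 are marked case and were taken as the PLSCR1 transgenic group (PLSCR1-TG) because the series has only 2 groups, so they are called transgenic-labelled. PLSCR1 belongs to the scramblases, proteins named for shuffling lipids across the cell membrane. All 4 libraries are of injured eyes, so the genotype label is the only difference between the groups that the labels give. Whether the groups also differ in other ways was not tested. The sources used here do not give the promoter of the transgene or the number of animals in each library, and the labelled age (embryonic day 14.5) is at odds with an injury of the eye and was not used.

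Voltage-gated calcium channels open when a cell depolarizes and let calcium in, which triggers transmitter release, shapes firing and signals to the nucleus. Each channel is built on 1 alpha1 subunit, which holds the pore and the voltage sensors. The family has 3 classes, which are Cav1 (L-type), Cav2 (the P/Q-, N- and R-type channels of presynaptic terminals) and Cav3 (the T-type channels, which open at small depolarizations). In Cav1 and Cav2 channels, beta and alpha2delta subunits bring the pore to the membrane and set its gating. In the retina, photoreceptors release glutamate through the Cav1.4 channel encoded by Cacna1f, and mutations of that gene cause congenital stationary night blindness.

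The upstream promoter windows of 3 members are printed because they are the most abundant gene of the family, Cacna1f, and 2 with larger differences, Cacna1b and Cacna1e, and because they differ in their content of CG, the dinucleotide that is methylated in vertebrate DNA. Each window is the 250 bases before an annotated start, from RefSeq on GRCm38.p6, 5′ to 3′ on the gene's strand, with every CG in capitals.
Cacna1f, chrX:7606853-7607102, plus strand: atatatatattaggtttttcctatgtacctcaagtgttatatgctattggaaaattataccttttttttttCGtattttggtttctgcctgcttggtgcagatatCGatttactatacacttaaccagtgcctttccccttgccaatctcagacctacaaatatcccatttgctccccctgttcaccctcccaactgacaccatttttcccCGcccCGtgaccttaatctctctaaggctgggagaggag
Cacna1b, chr2:24763153-24763402, minus strand: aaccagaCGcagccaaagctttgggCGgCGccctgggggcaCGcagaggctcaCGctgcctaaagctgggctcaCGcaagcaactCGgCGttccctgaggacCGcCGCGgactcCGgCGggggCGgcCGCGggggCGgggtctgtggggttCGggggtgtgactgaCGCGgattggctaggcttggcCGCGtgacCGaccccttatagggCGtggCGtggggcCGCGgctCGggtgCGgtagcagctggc
Cacna1e, chr1:154725921-154726170, minus strand: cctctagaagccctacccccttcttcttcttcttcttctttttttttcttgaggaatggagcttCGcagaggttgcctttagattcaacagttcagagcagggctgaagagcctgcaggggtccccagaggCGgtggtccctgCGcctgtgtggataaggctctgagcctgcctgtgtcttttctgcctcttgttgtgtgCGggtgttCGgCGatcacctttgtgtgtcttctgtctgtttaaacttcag
The Cacna1b window held 29 CG, the Cacna1e window 6 and the Cacna1f window 4. The median of all 32851 windows of this kind was 6 CG, and 6.78% of them held as many as Cacna1b or more. The promoter table had 9 windows for 6 of the members (Cacna1b, Cacna1c, Cacna1d, Cacna1e, Cacna1f and Cacna1i). The count depended on the annotated start, since the windows of Cacna1c held 5, 48 and 2 CG and those of Cacna1d 50 and 2. The letters TAATCC, a core motif of photoreceptor homeodomain factors such as CRX, were searched on both strands. They were in 0 of the 9 windows, against 6.25% of all windows, which says only that these letters are not in these windows.

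Totals were 28866589 to 41215649 estimated reads per library, and each member had at least 2079 reads over the 4 libraries. Levels are given in CPM (reads scaled to a common library size by TMM), and between genes in CPM per kilobase of the longest GENCODE M21 transcript. Markers of the labelled tissue were abundant, with the rod transducin gene Gnat1 at 12820 ± 682 CPM in wild type (SD, n = 2). Plscr1 itself had 7.95 and 8.27 CPM in wild type and 9.83 and 8.03 CPM in the transgenic-labelled libraries. Whether reads of the transgene would be counted in that mouse gene is not stated. Libraries are called replicates only as separate columns, so a p-value reflects only how these libraries vary, which may be technical.

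Per kilobase, wild-type retinas held Cacna1f at 50.9 ± 3.89 CPM per kilobase (SD, n = 2), the highest of the 9. It was followed by the T-type genes Cacna1h at 23.0 ± 1.26 and Cacna1g at 11.7 ± 0.0311 CPM per kilobase. Cacna1d, the Cav1.3 gene, had 7.21 ± 0.651 CPM per kilobase, the T-type gene Cacna1i 6.81 ± 0.569 and Cacna1a, the P/Q-type gene, 6.54 ± 0.616. These last 3 did not differ from each other beyond their spread. Cacna1b, the N-type gene, had 4.12 ± 0.258 CPM per kilobase. Cacna1c, the Cav1.2 gene known best from heart and smooth muscle, had 1.39 ± 0.00585 CPM per kilobase and Cacna1e, the R-type gene, 1.37 ± 0.124, again within their spread. Divided by coding length instead, Cacna1c (2.75) and Cacna1e (2.995 CPM per kilobase of coding sequence) changed places and the order of the other 7 was the same. Cacna1s, the skeletal muscle pore gene of the family and not among the 9, was also in the table, at 4.23 CPM per kilobase in wild type. Cacna1f made up 44.0% and 46.0% of the summed CPM per kilobase of the 9 genes in wild type, and 47.3% (TP-1036) and 44.9% (TP-1040) in the transgenic-labelled libraries.

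**Figure D1:**
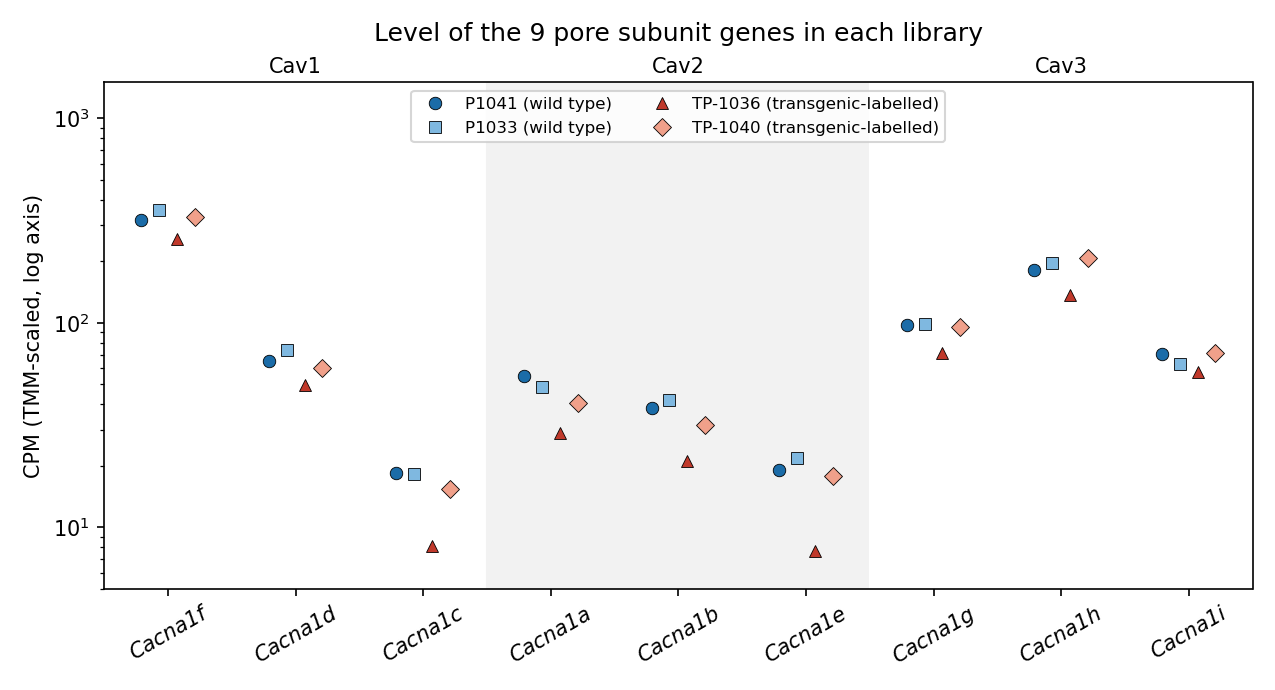
Level of each pore subunit gene in each library, in CPM on a log axis, grouped by channel class; each point is 1 library. Cacna1f is the highest, at 256 to 355 CPM, and TP-1036 (dark triangles) is the lowest of the 4 libraries for all 9 genes.

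All 9 members had a lower mean in the transgenic-labelled retinas, and 0 of the 9 passed the test over all genes. The log2 differences ran from -0.68 (Cacna1e) to -0.04 (Cacna1i), with a median of -0.34 against 0.0013 over all 14572 genes. Over all genes 49.8% had a difference below 0. Cacna1s, the pore gene of the family not among the 9, did not have a lower mean. Its difference was 0.085 ± 0.165 (log2, SE), with overlapping groups. Against the wild-type mean Cacna1s stood at -0.14 in TP-1036 and 0.28 in TP-1040 (log2). The members all have long transcripts, and long genes had lower medians than the whole table. The median over all genes was -0.11 for transcripts over 6000 and up to 8000 bases. It was -0.20 for those up to 10000 bases and -0.28 for longer ones. With edgeR's quasi-likelihood test and Benjamini-Hochberg adjustment, 1 gene of the table passed at 0.05 (0.00686%), the lysozyme gene Lyz2, which was higher (0.0% were called lower), and the smallest adjusted p among the members was 0.495. At an unadjusted p of 0.05, 3 members were lower (Cacna1a, Cacna1b and Cacna1d), where 4.65% of all genes were. DESeq2 also called 0 members, where it called 0.117% of all genes lower, with a smallest adjusted p of 0.213. In 6 of the 9 members both transgenic-labelled libraries lay below both wild-type ones, as in 24.3% of all genes. In bulk retina, fewer cells of a type and less RNA per cell cannot be told apart.

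The lower values were deepest in library TP-1036, which was the lowest of the 4 libraries for 9 of the 9 members, against 38.5% of all genes. The members' median difference from the wild-type mean was -0.48 (log2) for library TP-1036 and -0.19 for TP-1040. Between the wild-type libraries, P1033 was higher by a median of 0.11. Without TP-1036 the median log2 difference was -0.19, 7 of 9 members were below 0 (50.2% of all genes) and 0 passed, where 0.0549% of all genes were called lower (smallest adjusted p = 0.389, edgeR). Without TP-1040, which leaves TP-1036 as the only transgenic-labelled library, 8 of 9 passed as lower, all but Cacna1i, where 15.7% of all genes did, and their differences ran from -1.42 (Cacna1e) to -0.39 (Cacna1f). Without P1041 or P1033, 0 members passed, where 0.0274% and 0.0686% of all genes were called lower.

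The Cav2 genes, whose channels drive transmitter release at conventional synapses, were lower without overlap between the groups in 3 of 3 cases, as were 24.3% of all genes. Their longest transcripts, of 7926 to 14921 bases, fall in length classes in which TP-1036 was the lowest library for 69.1% to 83.8% of the genes. Cacna1a, which encodes the P/Q-type pore, had 55.3 and 48.4 CPM in wild type (P1041 and P1033) and 29.0 and 40.4 CPM in TP-1036 and TP-1040. Both transgenic-labelled libraries were below both wild-type ones, with a log2 difference of -0.58 ± 0.18 (SE), or 0.669 of the wild-type level, and of -0.36 without TP-1036. Its unadjusted p was 0.0153 and its adjusted p 0.495 (edgeR).

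Cacna1b, the pore of the N-type channel, had 38.3 and 41.9 CPM in wild type and 21.04 and 31.67 CPM in TP-1036 and TP-1040. The groups again did not overlap, and the log2 difference was -0.61 ± 0.20 (SE; unadjusted p = 0.0199, adjusted p = 0.495, edgeR), or -0.34 without TP-1036. Cacna1e, the pore of the R-type channel, had 19.1 and 21.7 CPM in wild type and 7.63 and 17.9 CPM in TP-1036 and TP-1040. Its groups did not overlap either, but TP-1040 lay close to the lower wild-type library and most of the difference of -0.68 ± 0.36 (log2, SE; adjusted p = 0.507, edgeR) came from TP-1036. Without TP-1036 it was -0.19.

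Among the Cav1 genes the difference was larger in the less abundant members. These also have the longer transcripts (13162 bases for Cacna1c, 9658 for Cacna1d and 6622 for Cacna1f), so abundance and length cannot be told apart here. Cacna1c had 18.4 and 18.3 CPM in wild type, and 8.11 and 15.5 CPM in TP-1036 and TP-1040. The wild-type libraries were nearly alike, and both transgenic-labelled ones were lower, with TP-1036 far below TP-1040 (-0.64 ± 0.28, log2, SE; adjusted p = 0.495, edgeR). Without TP-1036 the difference was -0.24.

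Cacna1d, whose Cav1.3 channel opens at more negative potentials than Cav1.2, had 65.2 and 74.1 CPM in wild type and 49.7 and 60.1 CPM in TP-1036 and TP-1040. The groups did not overlap, and the difference was -0.34 ± 0.14 (log2, SE; unadjusted p = 0.0467, adjusted p = 0.495, edgeR), or -0.21 without TP-1036. Cacna1f, the photoreceptor channel, had 319 and 355 CPM in wild type and 256 and 329 CPM in TP-1036 and TP-1040. TP-1040 fell between the wild-type libraries and only TP-1036 was below them, so the groups overlapped (-0.20 ± 0.16, log2, SE; adjusted p = 0.577, edgeR). Without TP-1036 the Cacna1f difference was -0.03, and without P1033 it was -0.12.

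The T-type genes of Cav3 had differences of -0.23 or closer to 0. Cacna1g had 97.8 and 98.2 CPM in wild type and 71.0 and 95.6 CPM in TP-1036 and TP-1040. TP-1040 was just below the wild-type libraries, which were nearly equal (-0.23 ± 0.16, log2, SE; adjusted p = 0.543, edgeR), and without TP-1036 the difference was -0.03. Cacna1h had 182 and 196 CPM in wild type and 137 and 208 CPM in TP-1036 and TP-1040, the lowest and the highest of the 4 values.

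The Cacna1h difference of -0.13 ± 0.20 (log2, SE; adjusted p = 0.774, edgeR) turned to 0.14 without TP-1036. Cacna1i had 70.5 and 62.6 CPM in wild type and 57.8 and 71.5 CPM in TP-1036 and TP-1040, with overlapping groups. Its difference was -0.04 ± 0.14 (log2, SE; adjusted p = 0.906, edgeR), and leaving out TP-1036 or P1041 gave 0.11 or 0.05.

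**Figure D2:**
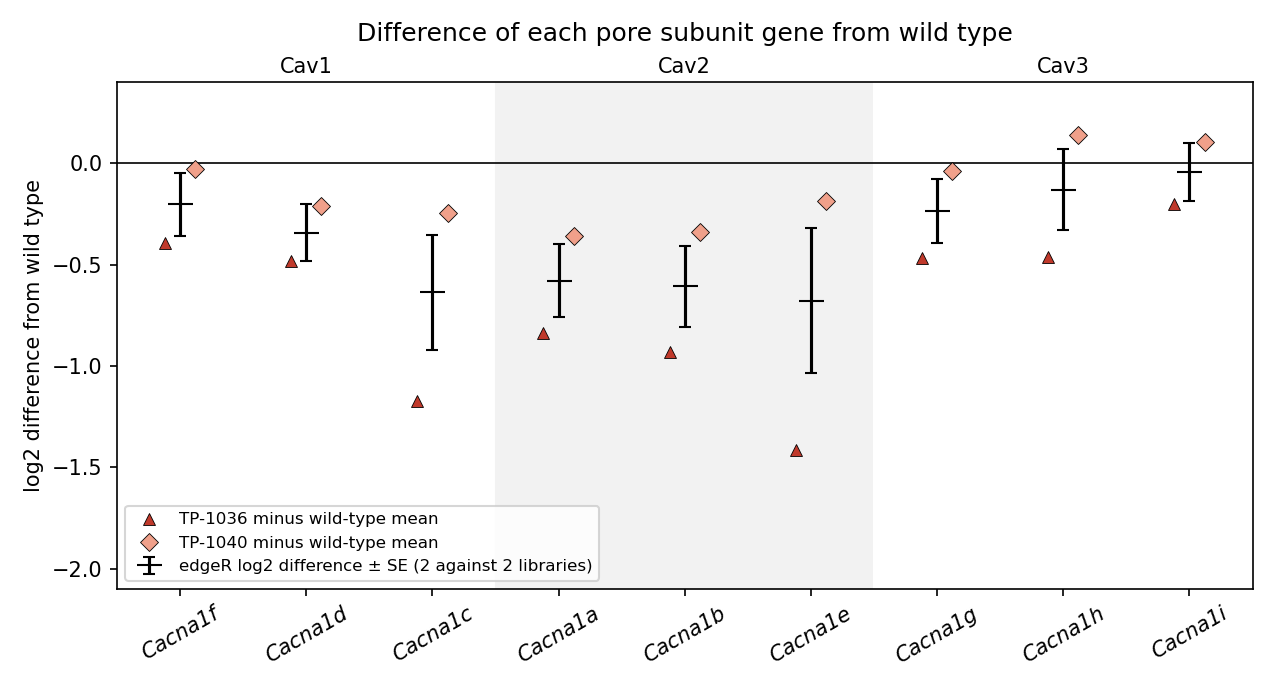
Log2 difference of each pore subunit gene from wild type, grouped by channel class; black bars are the edgeR difference with its SE (2 against 2 libraries), and symbols are each transgenic-labelled library minus the wild-type mean. TP-1036 lies below 0 for all 9 genes, and TP-1040 lies below 0 for 7, at -0.36 for Cacna1a and 0.14 for Cacna1h.

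The balance of the classes was compared as shares of the summed CPM per kilobase. Cav2 genes made up 11.1% and 10.2% in wild type, and 7.74% and 8.62% in TP-1036 and TP-1040. Both transgenic-labelled libraries were below both wild-type ones, by 2.48 percentage points on average (exact two-sided permutation p = 0.333, the smallest that 2 against 2 libraries can give). Cav3 genes made up 37.4% and 36.02% in wild type, and 38.0% and 39.8% in TP-1036 and TP-1040, again without overlap and 2.13 points higher on average (exact permutation p = 0.333). Cav1 genes held 51.4% and 53.8% against 54.3% and 51.6%, with overlapping groups (exact permutation p = 0.667). With 2 libraries a group, none of these shares could pass a threshold of 0.05. The shares of a library add up to the whole, so a lower Cav2 share by itself raises the others. The Cav3 result is therefore not independent of the Cav2 result. The Cav3 genes themselves had lower means in the transgenic-labelled libraries (log2 differences of -0.23 for Cacna1g, -0.13 for Cacna1h and -0.04 for Cacna1i).

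**Figure D3:**
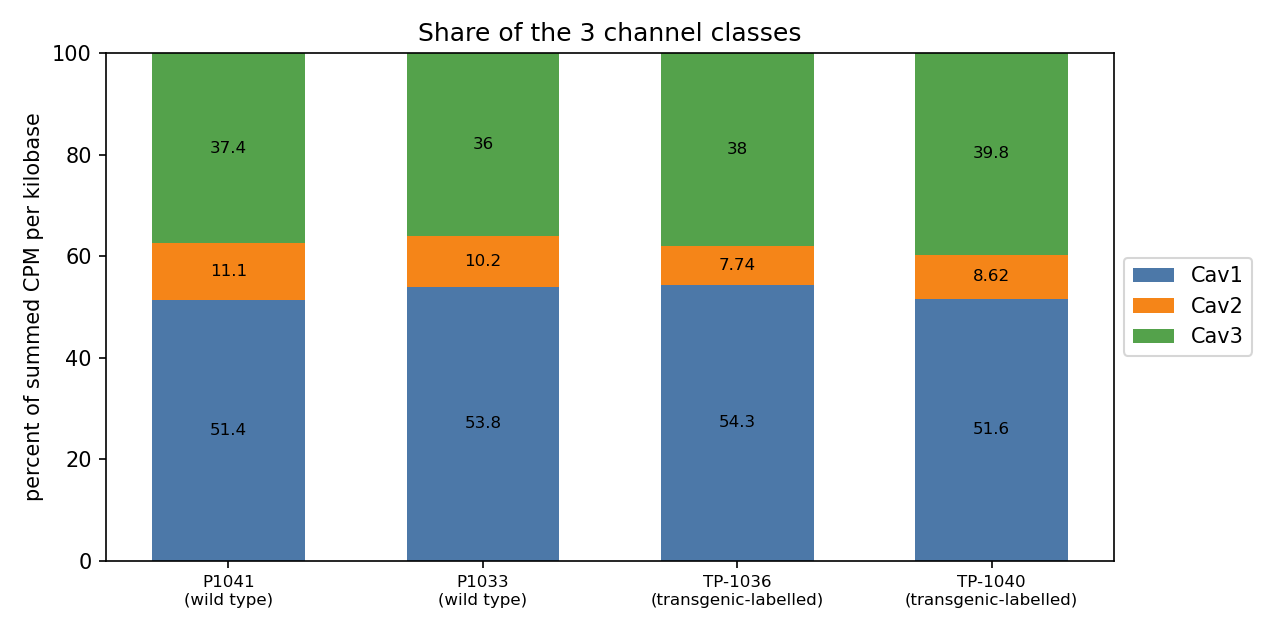
Share of the 3 channel classes in the summed CPM per kilobase of the 9 genes, in percent, 1 bar per library. Cav2 holds 11.1% and 10.2% in the wild-type bars and 7.74% and 8.62% in the transgenic-labelled ones.

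Transcript length moved with these differences in library TP-1036. The members' longest transcripts run from 6622 bases (Cacna1f) to 14921 bases (Cacna1e), where the median of all genes was 3472 bases. Over the 14405 genes with a known length, the difference of TP-1036 from wild type had a Spearman correlation with transcript length of -0.40, and that of TP-1040 of -0.04 (across genes, which share the libraries and are not replicates). The wild-type libraries also differed with length, with a correlation of 0.14 for P1033 minus P1041 over the same genes. In TP-1036 the median was -0.23 for genes with transcripts over 6000 and up to 8000 bases, -0.37 for those up to 10000 bases and -0.56 for longer ones, against 0.37 for genes of at most 1000 bases. The same medians in TP-1040 were -0.0028, -0.03, -0.06 and 0.03. TP-1036 was the lowest library in 69.1%, 77.1% and 83.8% of genes in the 3 longest length classes. Among the 9 members the correlation of length with the difference was -0.55 for TP-1036 and -0.13 for TP-1040 (Spearman, n = 9 genes). Cacna1i, with 9781 bases, was an exception at -0.20 in TP-1036, and Cacna1a, with 7926 bases, lay at -0.84.

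With a smooth of counts against transcript length taken out of each library, the members' median difference was -0.13, 7 of 9 were below 0 (49.6% of all genes) and 0 passed, where 0.0% of all genes were called lower. Cacna1a then stood at -0.44 ± 0.12, Cacna1b at -0.41 ± 0.11, Cacna1e at -0.43 ± 0.22 and Cacna1c at -0.40 ± 0.17 (log2, SE), with a smallest adjusted p of 0.379 (edgeR). All 9 differences were thus closer to 0 than before or above it. Cacna1f stood at -0.09 ± 0.10, Cacna1d at -0.13 ± 0.10 and Cacna1g at -0.07 ± 0.09, while Cacna1h was at 0.02 ± 0.12 and Cacna1i at 0.17 ± 0.10 (log2, SE).

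**Figure D4:**
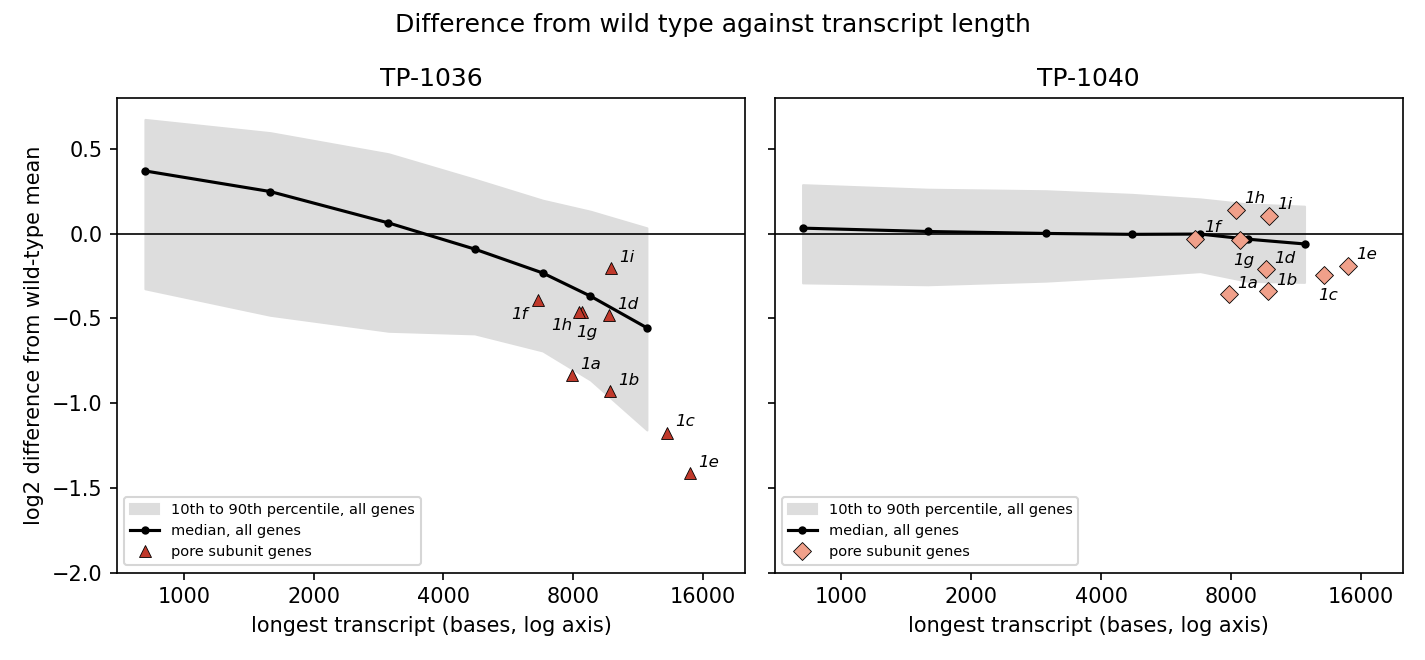
Log2 difference from the wild-type mean against the longest transcript in bases (log axis), for TP-1036 (left) and TP-1040 (right); the line and band are the median and the 10th to 90th percentile of all genes in 7 length classes, drawn at each class's median length, and symbols are the 9 members, named by their last letters. In TP-1036 the median of all genes goes from 0.37 to -0.56 with length, and in TP-1040 it stays between -0.06 and 0.03.

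Levels of cell type markers also differed between the libraries, and 1 marker (Lyz2, listed for microglia and macrophages) passed the test. All 7 ganglion cell markers had lower values (median -0.56), with 0 passing, and their summed level was 443 to 661 CPM in wild type and 353 to 407 CPM in the transgenic-labelled libraries, none of them at 0. The largest differences were in Slc17a6, the vesicular glutamate transporter of these cells, at -0.79, and in Rbpms, an RNA-binding protein that marks them, at -0.61 (log2). Ganglion cell markers also differed between the wild-type libraries, with a median of -0.53 for P1033 minus P1041. That median was 0.11 for the pore subunit genes and 0.0074 over all genes. Over the 14405 genes with a known length, P1033 minus P1041 had a Spearman correlation of 0.14 with transcript length. Of 7 amacrine cell markers 6 had lower values (median -0.30), with summed levels of 633 to 784 CPM against 572 to 595 CPM. The summed level of 5 rod markers was 20370 to 21650 CPM against 23770 to 26780 CPM, all 5 of them with higher values (median 0.26). Lens crystallins stood at 0.809 to 3.30 CPM in wild type and at 234 CPM in TP-1036 and 5.69 CPM in TP-1040, summed over 3 of 5 listed genes, with Crybb2 at 0 reads in P1033. Microglia and macrophage markers were higher in 6 of 6 genes (median 1.10), summed at 74.0 to 83.5 CPM against 170 to 239 CPM. Pigment epithelium markers were higher without overlap in 4 of the 4 in the table, as were 24.1% of all genes (median 1.13), summed at 25.6 to 34.7 CPM against 59.5 to 83.0 CPM. Müller glia markers were higher without overlap in 5 of 5 (median 0.40), summed at 3890 to 4017 CPM against 5127 to 6389 CPM. The cone, horizontal cell, vascular and bipolar lists had medians of 0.17, 0.18, 0.27 and 0.03. The part of these cell types in the pore subunit values was not tested.

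The auxiliary subunits were described from the whole list of Cacnb, Cacna2d and Cacng genes, of which 14 of 16 were in the table and 0 passed the test over all genes. Without TP-1040, 4 of the 14 passed, 3 lower and 1 higher, as did 28.7% of all genes. All 4 beta subunit genes had lower values, with a median of -0.10. Cacnb4, the beta4 subunit, was at 58.37 and 49.96 CPM in wild type and 26.9 and 38.5 CPM in TP-1036 and TP-1040. Both transgenic-labelled libraries were below both wild-type ones (-0.73 ± 0.19, log2, SE; unadjusted p = 0.00688, adjusted p = 0.482, edgeR). The difference was -0.58 ± 0.13 with transcript length taken out and -0.49 ± 0.12 without TP-1036 (log2, SE).

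Cacnb2, the beta subunit of the photoreceptor channel, stood at 183 ± 19.6 CPM in wild type and 182 ± 11.4 CPM in the transgenic-labelled libraries (SD, n = 2), a difference of -0.0093 ± 0.13 (log2, SE). Cacnb1 and Cacnb3 lay at -0.11 ± 0.17 and -0.08 ± 0.19 (log2, SE), with overlapping groups. Of the alpha2delta genes, Cacna2d4, the partner of Cacna1f at the photoreceptor synapse, had the highest level, with 491 ± 3.11 against 465 ± 38.0 CPM (SD, n = 2) and a difference of -0.08 ± 0.12 (log2, SE). The groups overlapped for Cacnb2 and Cacna2d4, as they did for Cacna1f. Cacna2d4 had 493 and 488 CPM in wild type and 438 and 492 CPM in TP-1036 and TP-1040. In this photoreceptor channel complex, TP-1036 was below both wild-type libraries for Cacna1f and Cacna2d4 but not for Cacnb2. Cabp4, a calcium-binding protein that modulates the same channel and was picked after its values were seen, had 149 ± 10.7 against 177 ± 8.93 CPM (SD, n = 2) without overlap (0.24 ± 0.12, log2, SE; adjusted p = 0.500, edgeR).

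Cacna2d1, a receptor of gabapentin, had 79.6 and 77.4 CPM in wild type and 41.0 and 67.7 CPM in TP-1036 and TP-1040. Its groups did not overlap, and its difference was -0.53 ± 0.22 (log2, SE; adjusted p = 0.495, edgeR), or -0.21 without TP-1036. Cacna2d2, which also binds gabapentin, lay at -0.32 ± 0.14 without overlap (-0.18 without TP-1036), and Cacna2d3 at 0.05 ± 0.12 with overlap (log2, SE). The gamma genes, most of which encode partners of AMPA receptors, had 3 members higher and 3 lower and a median of 0.0056. The largest differences among them were Cacng5 at -0.53 ± 0.19 and Cacng4 at 0.34 ± 0.17, both without overlap, and Cacng7 at 0.08 ± 0.12 (log2, SE). Cacng4 stood at 0.10 without TP-1036 and 0.56 without TP-1040, and Cacng5 at -0.24 without P1041. Cacng5 was near equal in the transgenic-labelled libraries, with 19.9 and 20.2 CPM in TP-1036 and TP-1040, against 34.1 and 23.7 CPM in wild type.

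**Figure D5:**
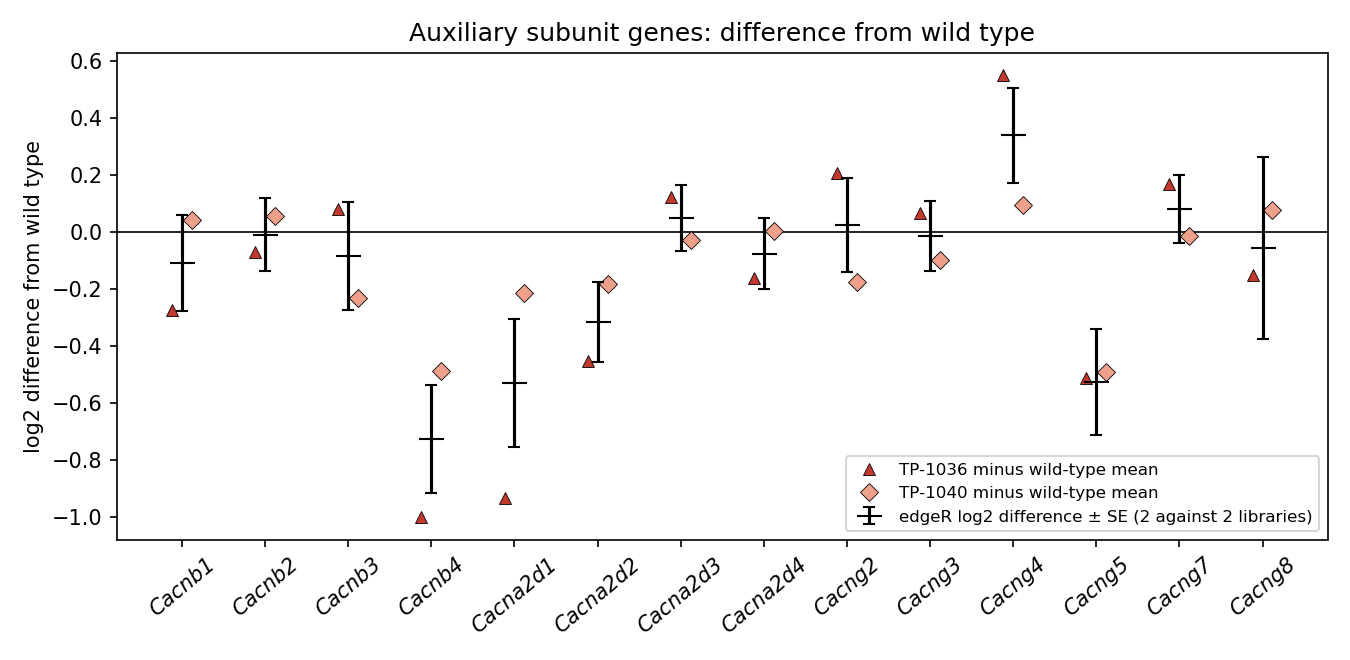
Log2 difference of the 14 auxiliary subunit genes in the table from wild type; black bars are the edgeR difference with its SE (2 against 2 libraries) and symbols are each transgenic-labelled library minus the wild-type mean. Cacnb4 has the lowest difference (-0.73) and Cacng4 the highest (0.34).

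Of 23 listed genes, mostly for partners of the channels at the active zone and in calmodulin signalling, 16 had lower and 7 higher values (median -0.11), and 0 passed. The list also held Nalcn (-0.36) and Unc80 (-0.45, log2), which are genes of a sodium leak channel. The largest differences were in Rims1, the active zone scaffold that binds presynaptic calcium channels, at 43.2 ± 9.34 against 73.8 ± 11.6 CPM (SD, n = 2; -0.77 ± 0.19, log2, SE), and in the calmodulin kinase gene Camk2a, at 20.6 ± 0.699 against 31.1 ± 2.89 CPM (-0.59 ± 0.13). Of 22 calcium pump, exchanger and store genes 11 were lower and 11 higher (median -0.0057), and 0 passed. Among these the ryanodine receptor genes Ryr2 and Ryr3, calcium release channels of the endoplasmic reticulum, had the largest differences at -0.83 ± 0.36 and -0.60 ± 0.40 (log2, SE). Their transcripts of 16814 and 15468 bases are longer than those of the members, and their differences were -1.61 and -1.44 in TP-1036 and -0.33 and -0.06 in TP-1040.

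Genes with the most similar pattern over the 4 libraries were found by the Euclidean distance of log2 CPM centred on each gene. For Cacna1f these were Ddi2 (distance 0.02), Slc7a6 and Rbm26 (both 0.02). For the mean of the 9 members they were Nrg1, a growth factor of the neuregulin family, (0.01), Rnf217 (0.03) and Ranbp2 (0.03). With 4 libraries such a likeness is common, since 315 genes lay within 0.1 of Cacna1f and 140 within 0.1 of the members' mean.

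By windows of 36 bases, the members' longest transcripts could be told apart from each other for nearly all of their length. Other genes were not searched for shared windows, and the reads themselves were not examined. Between longest transcripts, identical runs of 36 bases were shared only within the Cav3 genes (38 between Cacna1g and Cacna1i, 18 between Cacna1g and Cacna1h, 16 between Cacna1h and Cacna1i) and between Cacna1c and Cacna1d (8), out of 6587 to 14886 per gene. Exons of 3 members overlap a gene on the opposite strand in GENCODE M21, and reads there cannot be told apart without strand. These are Cacna1d with the choline dehydrogenase gene Chdh (589 bases; Chdh stood at 6.03 CPM in wild type), Cacna1h with Tpsg1 (158 bases) and Cacna1a with an antisense RNA gene (435 bases).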

How the data were processed

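Libraries were made from retinal total RNA with a TruSeq kit, per the labels' protocols. Bowtie 0.12.2 and the builds mm8 and mm9 are named, with no role, per the submitters' processing notes, and the sources used here do not give the read counter, annotation or filters. The authors deposited estimated counts per gene (80.3% to 82.4% whole numbers) and 4 columns of FPKM, which were not used. Column names give the group but no replicate number of the labels. The smallest deposited total was 76.9 reads over the 4 libraries. Counts were rounded and tested with edgeR 4.0.16 (limma 3.58.1, R 4.3.3), TMM scaling, filterByExpr, quasi-likelihood fits, two-sided, with Benjamini-Hochberg adjustment at 0.05 over all 14572 entries, since filterByExpr removed none. SE is the log2 difference over the root of F, and the common biological coefficient of variation was 13.9%. Alternatives were DESeq2 1.42.0, RLE scaling, a mean FPKM of at least 1 computed from the counts (12687 entries, all 9 members kept), unrounded counts, a length offset (loess, span 0.3, where 167 entries without a length took the median) and leaving out each library. The edgeR and offset steps were tested on simulated data. Values of single libraries against wild type and pattern distances use log2 CPM with a prior count of 1. Named are all members, all Cacnb and Cacna2d genes, 3 Cacng genes, and the 2 largest differences of lists described by name. The members and lists were chosen with earlier results of these data known. Protein sequences were not used here, and 1 listed rod marker is not reported here.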

Additional observations from a re-analysis of the deposited data

How the results depend on the processing

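Of 9 pore subunit genes 0 passed with DESeq2, RLE scaling, a mean FPKM of at least 1, unrounded counts, transcript length taken out, or without P1041, P1033 or TP-1036, and 8 passed without TP-1040. For the auxiliary genes the count was 0 under the same settings and 4 without TP-1040 (Cacnb4, Cacna2d1 and Cacna2d2 lower, Cacng4 higher; 28.7% of all genes passed there). The genes called over the whole table were 1 in the reported fit, 87 with DESeq2 (17 of them lower), 0 with a mean FPKM of at least 1, 0 with transcript length taken out, and 21 to 4177 when 1 library was left out, so the count depended on single libraries. With transcript length taken out, the log2 difference turned positive for Cacna1h (0.017), Cacna1i (0.165), Cacnb2 (0.050) and Cacna2d4 (0.011). Over the fits that leave out 1 library, the log2 difference ran from -0.458 to 0.143 for Cacna1h, -0.200 to 0.107 for Cacna1i, -0.273 to 0.043 for Cacnb1, -0.115 to 0.104 for Cacnb2, -0.300 to 0.166 for Cacnb3, -0.025 to 0.129 for Cacna2d3, -0.158 to 0.008 for Cacna2d4 and -0.010 to 0.175 for Cacng7. Leaving out TP-1036 turned the sign of all of these but Cacnb3, and leaving out P1041 turned Cacna1i (0.045), Cacnb1 (0.011), Cacnb2 and Cacnb3, which also turned without TP-1040 (0.069). Cacnb2 stood at 0.057 without TP-1036. The cause of these changes was not tested, and none of these genes had passed in the reported fit. A fit that leaves 1 library in a group assumes that it varies like the other group. The Cav2 difference in share ran from -2.965 to -2.001 percentage points and the Cav3 difference from 1.23 to 3.04 points when 1 library was left out, while the Cav1 difference went from -0.999 to 1.70 points. Coding length in place of transcript length was chosen after seeing the data and gave -2.76 points for Cav2. Without a filter the fit was the same, since the filter removed no gene. No paired analysis was possible because the table's columns carry no replicate number of the labels. With 2 libraries a group, their number limits the precision.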
